A study of Mus musculus with 2 samples.

Results

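The genes described here are 10 enzymes of threonine, serine and one-carbon metabolism: Tdh, Gcat, Gldc, Shmt1, Shmt2, Mthfd1, Mthfd1l, Mthfd2, Phgdh and Psat1. They were chosen by name and pathway, by a rule that holds no measured value but with earlier results of these data known, and all 10 of the 29833 genes of the expression table were found. The table has 1 record per gene and transcript biotype, so the 10 genes gave 16 of its 37178 records, 10 of them protein-coding and 6 lncRNA (a noncoding transcript annotated to the same gene). Total RNA-seq was collected from F123 mouse embryonic stem cells (mESCs), a male hybrid line whose paternal genome is CAST and whose maternal genome is S129, in 2 biological replicates of a single group. All cells were grown in DMEM with serum replacement (KSR), non-essential amino acids and LIF, whose concentration was raised off feeder cells, were kept without feeders for at least 2 passages, and were harvested after about 48 h without any treatment. The comparison within each gene is between its CAST and its S129 reads. F123 is 1 line from a cross in 1 direction, so strain and parent of origin cannot be told apart.

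Threonine dehydrogenase and its partner ligase turn threonine into glycine and acetyl-CoA in mitochondria, and mouse embryonic stem cells are known for their reliance on this route. Serine made from a glycolytic intermediate is the other main entry: serine hydroxymethyltransferases pass a carbon unit of serine to tetrahydrofolate and release glycine, and the glycine cleavage system draws a further unit from glycine. The folate-bound units are then oxidised or reduced by the MTHFD enzymes and used for purines, thymidylate and methionine. Of these reactions, the hydroxymethyltransferase and MTHFD steps run in parallel in the cytosol and in mitochondria, with separate genes for the compartments.

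The deposited table pools both replicates, so each allelic read number is a sum and no spread between replicates could be computed. Every interval and p-value below covers at most counting error. The allelic reads of all records summed to 16343693, of which 50.4% were CAST. A read can be counted at several variants of 1 record, so intervals and p-values can be too narrow even for counting error. It can also be counted in several records of this sum. Member records held 232 to 8431 allelic reads with a median of 1249, against a median of 397 in the 15935 records tested (at least 1 TPM, with allelic reads). The pluripotency markers were all expressed, with the highest record of each of the 10 genes at 12.1 to 483 TPM and a median of 124. Among 12 fibroblast markers of feeder cells, 4 reached 1 TPM, the highest record of each gene ranged from 0.036 to 8.77 TPM (Acta2), and the median was 0.293 TPM.

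Shmt1 was the single member with an allele-specific expression (ASE) call, and the other 15 member records were biallelic. Shmt1 had 2011 CAST and 934 S129 reads at the protein-coding record, a 2.15-fold higher CAST level. An ASE call required a difference of at least 2-fold, an adjusted p of at most 0.05 in a two-sided exact binomial test with Benjamini-Hochberg adjustment over the whole table, and at least 1 TPM. Of all tested records, 14.1% were called, 8.33% toward CAST and 5.78% toward S129, so 1 call among 16 records was not set apart from the background. Without the fold minimum, 4 member records passed the test toward CAST (Shmt1, Gldc, Phgdh and Mthfd2) and 1 toward S129 (Mthfd1), and the other 11, including every lncRNA record of a member, had an adjusted p over 0.05. The same test without the fold minimum called 25.4% of tested records toward CAST and 22.9% toward S129. The median absolute log2 fold change of the 10 protein-coding records was 0.13, against 0.36 over the tested records, and the signed medians were 0.08 for members and 0.01 for tested records. Deeper records pass a test at smaller differences, and the members were deeper than the median record. Counting error also enlarges the absolute fold changes of shallow records, so the 2 absolute medians were not compared at like depth.

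**Figure D1:**
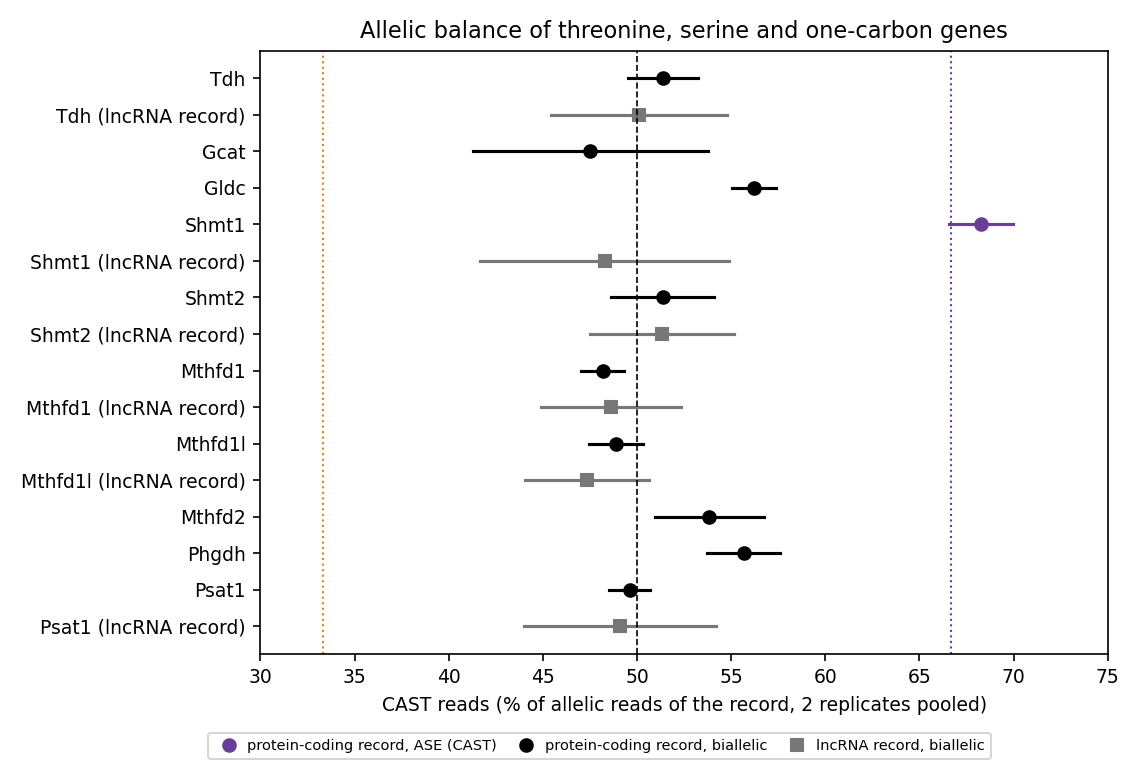
CAST reads as a percentage of the allelic reads of each member record (x axis), with exact 95% binomial intervals as lines. The dashed line marks equal shares and the dotted lines a 2-fold difference in either direction. Shmt1 at 68.3% is the only record past a dotted line, and its lncRNA record at 48.3% lies with the others.

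Shmt1, the cytosolic serine hydroxymethyltransferase, lies on the minus strand of chromosome 11 (chr11:60788104-60811265, mm10; ENSMUSG00000020534) and had 12 exons in the chosen transcript. Its CAST share was 68.3% (exact 95% interval 66.6 to 70.0%), with a log2 fold change of 1.11 (SE 0.06) and an adjusted p of 1.03e-87 in the exact binomial test. A 2-fold difference corresponds to a share of 66.7%, so the lower end of the interval fell just below the fold minimum. The share rested on 31 variants, 13 exonic and 18 intronic. Of the tested records, 8.35% had a CAST share at or above that of Shmt1. Assuming a correlation of 0.01 between the reads of a gene, in place of counting error alone, the adjusted p was 0.00263 and the call was kept. At a correlation of 0.05 the adjusted p was 0.803 and the call was lost.

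Shmt2, the mitochondrial serine hydroxymethyltransferase, lies on chromosome 10 (chr10:127517139-127522444, minus strand; ENSMUSG00000025403) and had 681 CAST and 645 S129 reads. Its share was 51.4% (48.6 to 54.1%) with an adjusted p of 0.467. The CAST share of Shmt1 was 16.9 percentage points higher than that of Shmt2 (Newcombe 95% interval 13.8 to 20.1, adjusted p = 2.80e-25, two-sided Fisher's exact test over 3 pairs of cytosolic and mitochondrial enzymes). With the reads thinned for a correlation of 0.01 the difference was 16.4 points and its adjusted p was 0.0788. The 250 bases of the C57BL/6J reference before the start of the protein-coding transcript of each of these genes are shown because the pair runs 1 reaction at differing allelic balance. The Shmt1 window lies within the gene as annotated, since the lncRNA record begins further upstream and its first exon overlaps the window. The sequences are from RefSeq (GRCm38.p6), written 5′ to 3′ on the minus strand, and capitals mark GGGCGG, the core of a GC box, and CCAAT on either strand.
Shmt1, chr11:60811266-60811515: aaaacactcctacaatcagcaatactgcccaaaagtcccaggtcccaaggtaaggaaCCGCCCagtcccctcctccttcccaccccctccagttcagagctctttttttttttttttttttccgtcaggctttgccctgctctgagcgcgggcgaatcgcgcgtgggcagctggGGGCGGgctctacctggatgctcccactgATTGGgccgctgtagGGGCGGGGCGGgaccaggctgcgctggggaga
Shmt2, chr10:127522445-127522694: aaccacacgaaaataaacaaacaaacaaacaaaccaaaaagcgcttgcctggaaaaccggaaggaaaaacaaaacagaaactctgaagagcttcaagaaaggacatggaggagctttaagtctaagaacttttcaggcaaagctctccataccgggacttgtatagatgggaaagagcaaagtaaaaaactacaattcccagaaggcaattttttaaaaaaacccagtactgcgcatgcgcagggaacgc
The Shmt1 window held 4 matches of GGGCGG, a pair of which share bases, and 1 of CCAAT at 60.0% GC. The Shmt2 window held no match of either at 40.8% GC. Among 32851 RefSeq promoter windows of this length, 32.7% held GGGCGG and 33.8% held CCAAT. Windows of 9 of the 10 members were matched (Tdh was not), in 10 windows since Psat1 had a pair, and each of these motifs was in 6 of the 10 windows. CACGTG, the E-box, was in none of the 9 genes and in 6.02% of all windows, and TGATGNAAT, a form of the amino acid response element, was in none of the 9 and in 0.816% of all windows. The deposited table gives variant numbers but not their positions, so variants within these windows were not analysed here.

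The lncRNA record of Shmt1 did not share the CAST excess of the protein-coding record. This record (4 exons, chr11:60804345-60811718) covers the first exons of the gene and extends 453 bases past the protein-coding start. It had 112 CAST and 120 S129 reads, a share of 48.3% (41.7 to 54.9%) with an adjusted p of 0.769, at 3 variants. The reads of an inner record in this table never exceeded those of the record around it, in any of 5327 nested pairs. With its 453 extra bases this lncRNA record is not wholly nested, so that check does not cover it. Its reads were taken as part of the protein-coding ones and subtracted, which is an assumption. The remaining 28 variants had 1899 CAST and 814 S129 reads, a share of 70.0% (68.2 to 71.7%) that lay wholly above 66.7%. The rest of the record exceeded the inner one by 21.7 points (15.1 to 28.3, adjusted p = 4.12e-10, Fisher's exact test over 8 such comparisons), and by 22.3 points with an adjusted p of 0.0467 after thinning for a correlation of 0.01. The 3 variants could also lie in the 453 bases outside the protein-coding span, in which case the share to set beside 48.3% is that of the undivided record, 68.3%, and no difference within the protein-coding span is shown. The lncRNA span had 28.0% of the gene's reads by TPM and 7.88% of its allelic reads.

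Genes around Shmt1 had lower CAST shares. Smcr8, on the other strand, overlaps 184 bases of its 3′ end and had 285 CAST and 365 S129 reads (43.8% CAST). Top3a, a DNA topoisomerase gene 10.7 kb away, had 274 CAST and 282 S129 reads (49.3%). Dhrs7b, 19.4 kb to the other side, had 215 CAST and 290 S129 reads (42.6%). Within 500 kb, 25 tested records of 18 other genes had a median CAST share of 49.4%, with 1 ASE call toward CAST and 0 toward S129 by the same exact binomial test. Reads with the reference base can align more readily than reads with the other base. Of the 31 variants of Shmt1, 5 (16.1%) carried the non-reference base on the S129 side and the rest on the CAST side, against 5.40% of the 463 variants of the neighbouring records and 11.1% over the table. The part of alignment in the shares was not tested.

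Tdh, threonine dehydrogenase, catalyses the first step of threonine breakdown in mitochondria and lies on chromosome 14 (chr14:63492347-63509092, minus strand; ENSMUSG00000021953). Its protein-coding record had 1454 CAST and 1375 S129 reads, a share of 51.4% (49.5 to 53.3%) with an adjusted p of 0.236. Its lncRNA record, within the first intron and exon, was at 229 CAST and 228 S129 reads. The noncoding gene Gm17232 lies wholly inside Tdh on the opposite strand and covers exons 3 to 8 of 9. It held 36.9% of the span of Tdh, 68.8% of the reads in that span and 55.4% of its allelic reads. The TPM values were summed without regard to strand, as shown by 2566 of 2566 nested pairs of genes on opposite strands in which the inner gene's total did not exceed the outer one's, so reads of Tdh and of Gm17232 could not be told apart where they overlap. Gm17232 had 751 CAST and 816 S129 reads (47.9%), and the rest of Tdh had 703 CAST and 559 S129 reads (55.7%, 52.9 to 58.5%). The rest of Tdh was 7.78 points above the shared part (4.08 to 11.4, adjusted p = 0.000174, Fisher's exact test). The interval of Gm17232 (45.4 to 50.4%, adjusted p = 0.184 in the exact binomial test) included equal shares, while that of the rest of Tdh lay above them. With thinning for a correlation of 0.01 the adjusted p of this difference was 1.

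Gcat, which splits the product of Tdh into glycine and acetyl-CoA, lies on chromosome 15 (chr15:79030874-79038353, plus strand; ENSMUSG00000006378). It had the fewest allelic reads of the protein-coding members, 259 in all, of which 47.5% were CAST and 136 reads were S129, at 6 variants that were all exonic. The CAST share had the widest interval (41.3 to 53.8%) and an adjusted p of 0.591, so a difference of a few points was not detectable at this depth. H1f0, which encodes a linker histone and ends 0.37 kb before Gcat, had 381 CAST and 317 S129 reads (54.6%).

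Gldc, the decarboxylase (P protein) of the glycine cleavage system, lies on chromosome 19 (chr19:30098447-30175429, minus strand; ENSMUSG00000024827). It had 3959 CAST and 3083 S129 reads, a share of 56.2% (55.1 to 57.4%), a log2 fold change of 0.36 (SE 0.03) and an adjusted p of 2.35e-24. The difference of 1.28-fold was below the fold minimum, and the adjusted p was 0.526 at a correlation of 0.01. Uhrf2, a gene of a ubiquitin ligase 4.7 kb away, had 1499 CAST and 1140 S129 reads, a share of 56.8%. The other proteins of the glycine cleavage system, named after their values were seen, had differing balances. Amt, the aminomethyltransferase, had 375 CAST and 445 S129 reads (45.7%). Dld, the dihydrolipoamide dehydrogenase shared with other mitochondrial complexes, had 1958 CAST and 1086 S129 reads (64.3%). Gcsh, the lipoyl carrier, had 1724 CAST and 2875 S129 reads at the protein-coding record (37.5%). Its lncRNA record had 597 CAST and 319 S129 reads (65.2%). The lncRNA record of Gcsh lies inside the protein-coding one, so its reads enter the 37.5%. The protein-coding record without these reads, which lean the other way, was not tested for an ASE call. None of the 4 genes of the system had an ASE call.

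Phgdh and Psat1 encode the first 2 enzymes of serine synthesis. The CAST share was 55.7% for Phgdh and 49.6% for Psat1, and the difference between them was not tested. Phgdh, the dehydrogenase on chromosome 3 (chr3:98313170-98339990, minus strand; ENSMUSG00000053398), had 1438 CAST and 1145 S129 reads, a share of 55.7% (53.7 to 57.6%) and an adjusted p of 4.97e-08. Its log2 fold change of 0.33 (SE 0.06) was below the minimum, and the adjusted p was 0.589 at a correlation of 0.01. Psat1, the aminotransferase on chromosome 19 (chr19:15904678-15925059, minus strand; ENSMUSG00000024640), had the most allelic reads of the members, 4182 CAST and 4249 S129. Its share of 49.6% had the narrowest interval (48.5 to 50.7%). The lncRNA record of Psat1 had 188 CAST and 195 S129 reads at 1 variant. Psph, the phosphatase of the last step of the pathway, named after its values were seen, had 394 CAST and 487 S129 reads at the protein-coding record (44.7%, adjusted p = 0.0053, exact binomial test).

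The folate-dependent dehydrogenases and synthetases had CAST shares between 48.2 and 53.8%. Mthfd1, which carries the dehydrogenase, cyclohydrolase and formyltetrahydrofolate synthetase activities in the cytosol, lies on chromosome 12 (chr12:76255298-76319803, plus strand; ENSMUSG00000021048) and had 3482 CAST and 3746 S129 reads. Its share of 48.2% (47.0 to 49.3%) had an adjusted p of 0.00542, and 0.933 at a correlation of 0.01. The antisense noncoding gene Gm34868 lies inside Mthfd1 and held 57.5% of the reads in its span. Gm34868 had 2119 CAST and 2163 S129 reads (49.5%), and the rest of Mthfd1 had 1363 CAST and 1583 S129 reads (46.3%, 44.5 to 48.1%). The rest was lower in CAST share than Gm34868, by a difference of -3.22 points (-5.56 to -0.876, adjusted p = 0.0195, Fisher's exact test). After thinning for a correlation of 0.01 the difference was -2.59 points with an adjusted p of 1.

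Mthfd1l, the mitochondrial formyltetrahydrofolate synthetase that releases formate, lies on chromosome 10 (chr10:3973131-4167081, plus strand; ENSMUSG00000040675) and had 2345 CAST and 2451 S129 reads, a share of 48.9% (47.5 to 50.3%). Mthfd2, the mitochondrial methylenetetrahydrofolate dehydrogenase and cyclohydrolase, lies on chromosome 6 (chr6:83305691-83317606, minus strand; ENSMUSG00000005667) and had 631 CAST and 541 S129 reads. The share of Mthfd2 was 53.8% (50.9 to 56.7%) with an adjusted p of 0.0219, and 0.779 at a correlation of 0.01. Mthfd1 was below Mthfd2 in CAST share (difference -5.67 points, -8.73 to -2.58, adjusted p = 0.000493, Fisher's exact test), a difference with an adjusted p of 0.705 after thinning. Mthfd1 and Mthfd1l differed by -0.72 points (-2.54 to 1.10, adjusted p = 0.445, Fisher's exact test). Both comparisons used the whole Mthfd1 record, which has 59.2% of its allelic reads in the span of Gm34868. The rest of Mthfd1, at 46.3% (44.5 to 48.1%), was not tested against Mthfd1l or Mthfd2. The 4 cytosolic members had a median CAST share of 52.6% and the 6 mitochondrial ones 51.4%.

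**Figure D2:**
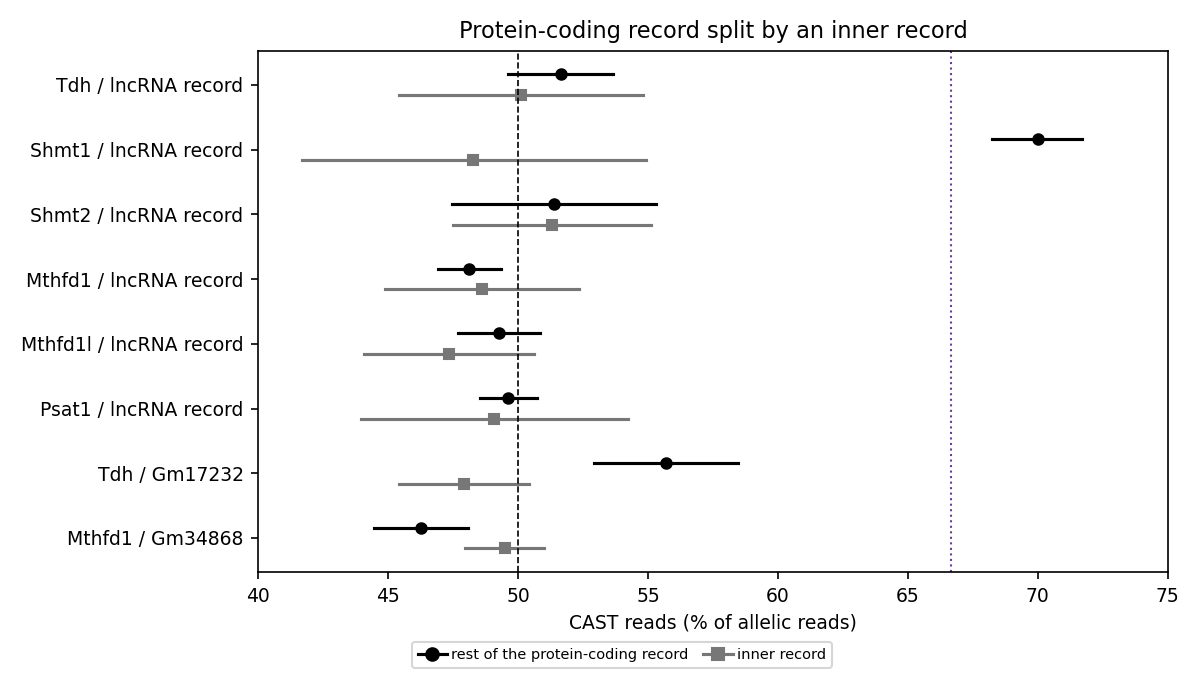
CAST share (x axis) of the part of each protein-coding record outside an inner record (black circles) and of that inner record (grey squares), with exact 95% intervals, for 6 lncRNA records and 2 antisense genes. The rest of Shmt1 at 70.0% stands apart from its lncRNA record at 48.3%, and the rest of Tdh at 55.7% from Gm17232 at 47.9%. The Shmt1 lncRNA record extends 453 bases outside the protein-coding one, so its split assumes that its variants lie inside. The splits of Tdh and Mthfd1 by their lncRNA records do not remove the reads of the antisense genes.

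The other lncRNA records lie wholly inside their protein-coding records, unlike that of Shmt1, and no difference was detected in their splits. That of Mthfd1 also lies wholly inside the antisense gene Gm34868, so its reads could not be told from those of Gm34868. The rest of Mthfd1 in this split holds the other reads of Gm34868. The rest of Shmt2 had 331 CAST and 313 S129 reads and its lncRNA record 350 CAST and 332 S129 reads, a difference of 0.078 points (-5.29 to 5.44). For Tdh, Mthfd1, Mthfd1l and Psat1 the rest and the lncRNA record differed by -0.48 to 1.92 points, with adjusted p-values of 0.609 or more by Fisher's exact test. These intervals reached as far as 6.52 points for Tdh, so smaller differences could not be seen at this depth. In this split the rest of Tdh still held the 751 CAST and 816 S129 reads of Gm17232, which does not overlap the lncRNA record. The lncRNA record was not tested against the rest of Tdh without Gm17232, so no lack of difference within Tdh itself is shown.

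Among the 20 nearest tested neighbours of the 10 members, 0 were called toward CAST and 2 toward S129 (10.0%, beside 14.1% of all tested records), and their CAST shares ranged from 13.5 to 63.1%. Slc4a5, a bicarbonate transporter gene that ends 0.746 kb from Mthfd2, had 95 CAST and 610 S129 reads (13.5%), beside 53.8% for Mthfd2. Akap5, an anchoring protein gene 5.09 kb from Mthfd1, had 108 CAST and 239 S129 reads (31.1%), beside 48.2% for Mthfd1. The highest share was that of Mtmr9, a gene of the myotubularin family 14.4 kb from Tdh, with 625 CAST and 365 S129 reads. The other 13 nearest records were biallelic with CAST shares of 45.1 to 59.1%. They were those of Fam167a for Tdh, Ankrd54 for Gcat, Cstf2t for Gldc, Ndufa4l2 and Lrp1 for Shmt2, and Tex21 for Mthfd1. The rest were Plekhg1 and Akap12 for Mthfd1l, Mob1a for Mthfd2, Notch2 and Wars2 for Phgdh, and Tle4 and Cep78 for Psat1. Several were distant, with Notch2 163 kb and Wars2 801 kb from Phgdh, Cstf2t 907 kb from Gldc and Tle4 1307 kb from Psat1. At the ends of members, the protein-coding record of Ndufa4l2 overlapped 16 bases of Shmt2 and had 36 CAST and 31 S129 reads, and Gm47525 overlapped 37 bases of Mthfd1 and had 14 CAST and 18 S129 reads. Within 500 kb of the 10 members, 7 of 167 tested records were called toward CAST and 8 toward S129, together 8.98%, which is below the 14.1% over all tested records.

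**Figure D3:**
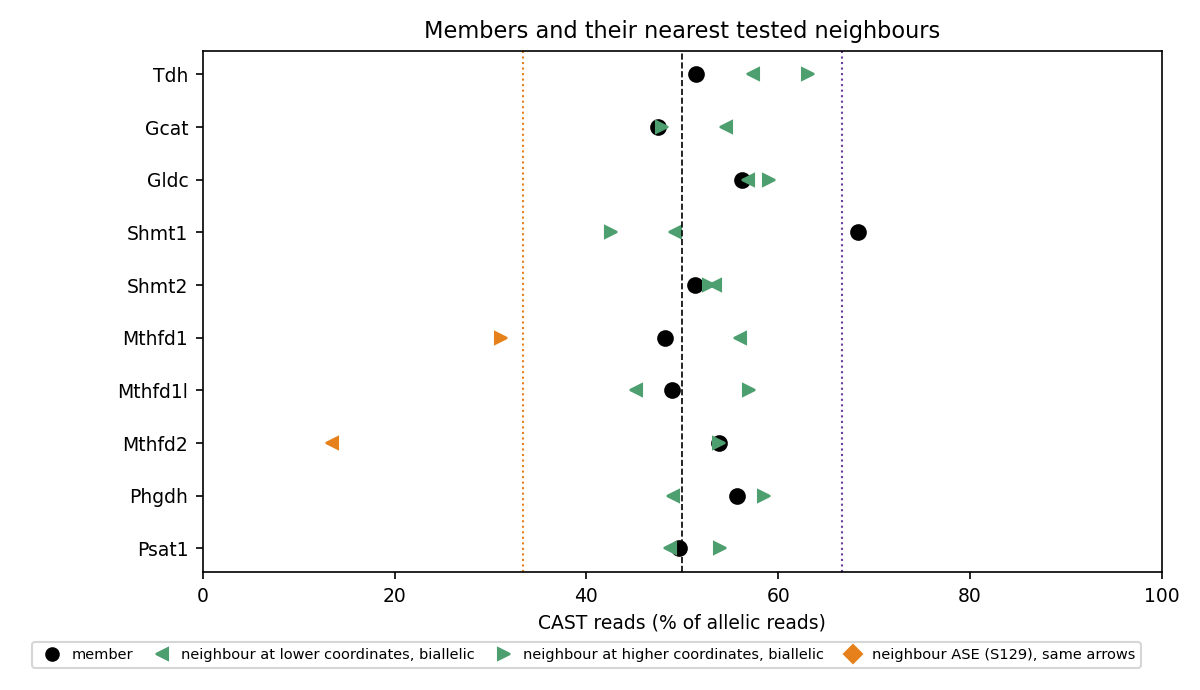
CAST share (x axis) of each member (black circle) and of the nearest tested record at lower and at higher coordinates (left- and right-pointing triangles, orange where called toward S129). Shmt1 at 68.3% lies to the right of both neighbours, at 49.3 and 42.6%, while the orange triangles beside Mthfd1 and Mthfd2 mark Akap5 and Slc4a5.

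All 10 genes were expressed, and 9 of the 10 protein-coding records were above the median of 6.24 TPM over the 17956 expressed records. In the deposited TPM, reads over exons and introns are divided by the genomic span of the transcript, which ran from 5.31 kb for Shmt2 to 194 kb for Mthfd1l. On this scale Shmt2 was highest at 97.9 TPM, with 96.8% of expressed records below it. Psat1 followed at 36.0 TPM, Tdh at 32.0 TPM, Shmt1 at 23.9 TPM, Mthfd2 at 21.5 TPM and Mthfd1 at 21.1 TPM. Phgdh was at 12.8 TPM, Gldc at 10.1 TPM, Gcat at 7.73 TPM and Mthfd1l at 3.60 TPM, which 33.3% of expressed records fell below. Without replicate values, neighbours in this order could not be tested against each other.

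The order depended on the length the reads were divided by. Rescaling the deposited exon TPM to exon length, a step added after the values were seen, gave a level in arbitrary units with a median of 41.5 over expressed records. Mthfd1 was highest on this scale at 412, with 95.2% of expressed records below it. Psat1 was at 299.5, Shmt2 at 267, Tdh at 233, Gldc at 213 and Shmt1 at 211. Phgdh was at 175, Mthfd2 at 138 and Mthfd1l at 124, the last with 78.9% of expressed records below it. Gcat, at 28.1, was the single member under the median. The levels of Mthfd1 and Tdh include reads of the antisense genes inside them on both scales, the deposited TPM as well as the exon level. The highest member was 27.2 times the lowest on the span scale and 14.6 times on the exon scale.

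**Figure D4:**
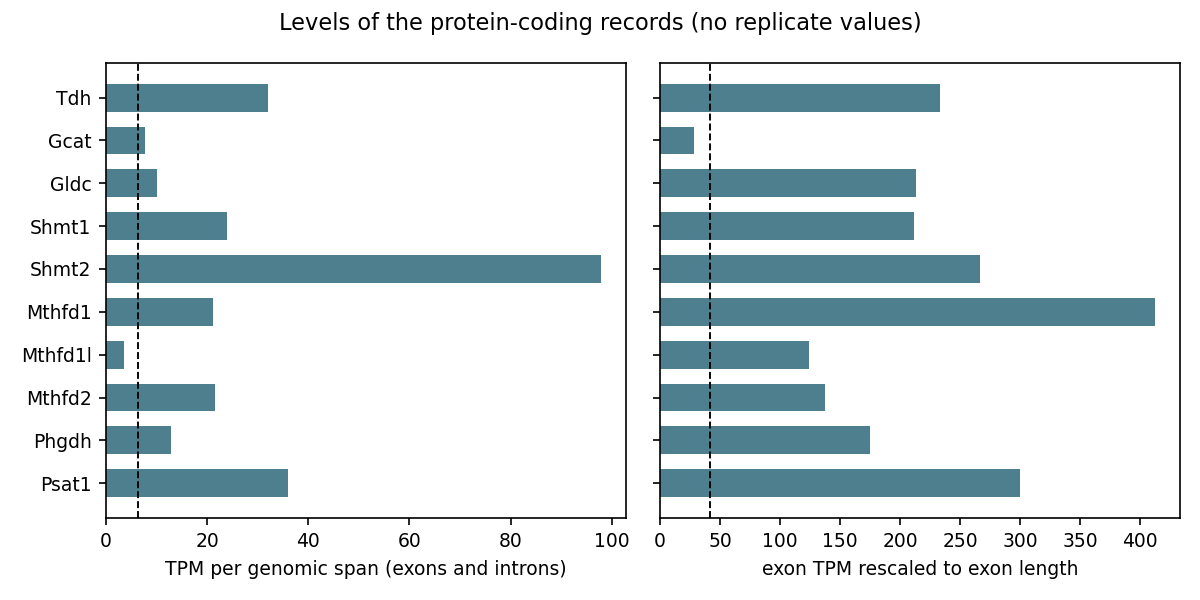
Level of each protein-coding member record as deposited TPM per genomic span (left) and as exon TPM rescaled to exon length (right, arbitrary units). Dashed lines are the medians over expressed records, 6.24 and 41.5. Shmt2 leads on the left at 97.9 TPM and Mthfd1 on the right at 412, and Mthfd1l lies below the line only on the left, Gcat only on the right.

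The share of reads in exons, a gauge of spliced against intronic RNA in total RNA, differed between members. It was 96.4% in Shmt2, 94.5% in Gcat, 91.8% in Mthfd2, 89.6% in Shmt1, 87.7% in Psat1 and 84.5% in Gldc. It was 80.4% in Mthfd1, 79.2% in Phgdh and 67.1% in Tdh. Mthfd1l, with the longest introns, had the lowest share at 53.9%, so nearly as many of its reads were intronic as exonic. These shares were derived from the ratio of the 2 deposited TPM values, divided by its median of 1.22 in 830 single-exon records. Of these single-exon records 572 (68.9%) lay at that median ratio, so the shares are approximate. Antisense genes enter the shares of Tdh and Mthfd1.

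Beyond the 10 members, 69 other genes of the pathway were examined in 5 lists (serine and glycine, folate, methionine, transport, and the amino acid stress response). Of these 52 were expressed, and 11 of their 72 tested records (15.3%) had an ASE call by the exact binomial test, 8 toward CAST and 3 toward S129, beside the 14.1% of all tested records. The 11 records belong to 8 genes, since both records of Mthfsl, Slc1a5 and Nupr1 were called, and records of 1 gene that overlap share reads. The median log2 fold change of the 72 tested records of these lists was 0.15, against 0.01 over all tested records. The serine and glycine list had 0 calls among 9 tested records, 4 of which passed the test toward CAST and 3 toward S129 without the fold minimum. Its highest record was the lncRNA record of Amt at 39.0 TPM, with 328 CAST and 363 S129 reads.

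Ahcy had a large CAST excess in the methionine cycle. Ahcy, adenosylhomocysteinase, which removes the product of methylation reactions, had 565 CAST and 74 S129 reads, a share of 88.4%, with a log2 fold change of 2.93 (SE 0.18) and an adjusted p of 9.84e-93 in the exact binomial test. The lncRNA record of Ahcyl2 had 12 CAST and 30 S129 reads at 1 variant and was the other call among 15 tested records. Mat2a, the methionine adenosyltransferase of non-liver cells, was the highest of the list at 111 TPM and had 645 CAST and 449 S129 reads (59.0%).

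The folate list had 3 calls toward CAST among 17 tested records. Ggh, the lysosomal hydrolase of folate polyglutamates, had 268 CAST and 125 S129 reads (68.2%). Both records of Mthfsl had the same 22 CAST and 2 S129 reads at 2 variants, so these calls are of a single set of reads. The highest record was the lncRNA record of Fpgs, which adds glutamates to folate, at 58.3 TPM with 199 CAST and 180 S129 reads. The protein-coding record of Fpgs was at 27.0 TPM with 206 CAST and 181 S129 reads.

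Transport genes had 3 calls toward CAST among 17 tested records. Slc1a5, a carrier of neutral amino acids including serine and threonine, had 1459 CAST and 569 S129 reads at the protein-coding record (71.9%) and 374 CAST and 155 S129 reads in its lncRNA record (70.7%), which lies inside the protein-coding one. Slc6a9, a glycine transporter, had 36 CAST and 18 S129 reads, exactly at the fold minimum, with an adjusted p of 0.0433 in the exact binomial test. Slc38a2, a carrier of small neutral amino acids, was highest at 54.5 TPM with 2241 CAST and 3155 S129 reads (41.5%).

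Stress-response genes were called both ways, with 1 call toward CAST and 2 toward S129 among 14 tested records. Chac1, which degrades glutathione, had 75 CAST and 0 S129 reads, at least 25.0-fold higher from CAST if 3 S129 reads are set as the floor, and the count of 0 allows an S129 share of up to 4.0%. Nupr1, a stress-induced nuclear protein, had 99 CAST and 516 S129 reads at the protein-coding record (16.1%) and 8 CAST and 137 S129 reads in its lncRNA record (5.52%). Atf4, the transcription factor that induces serine synthesis genes under amino acid shortage, was the highest at 192 TPM and had 908 CAST and 484 S129 reads (65.2%), below the fold minimum.

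**Figure D5:**
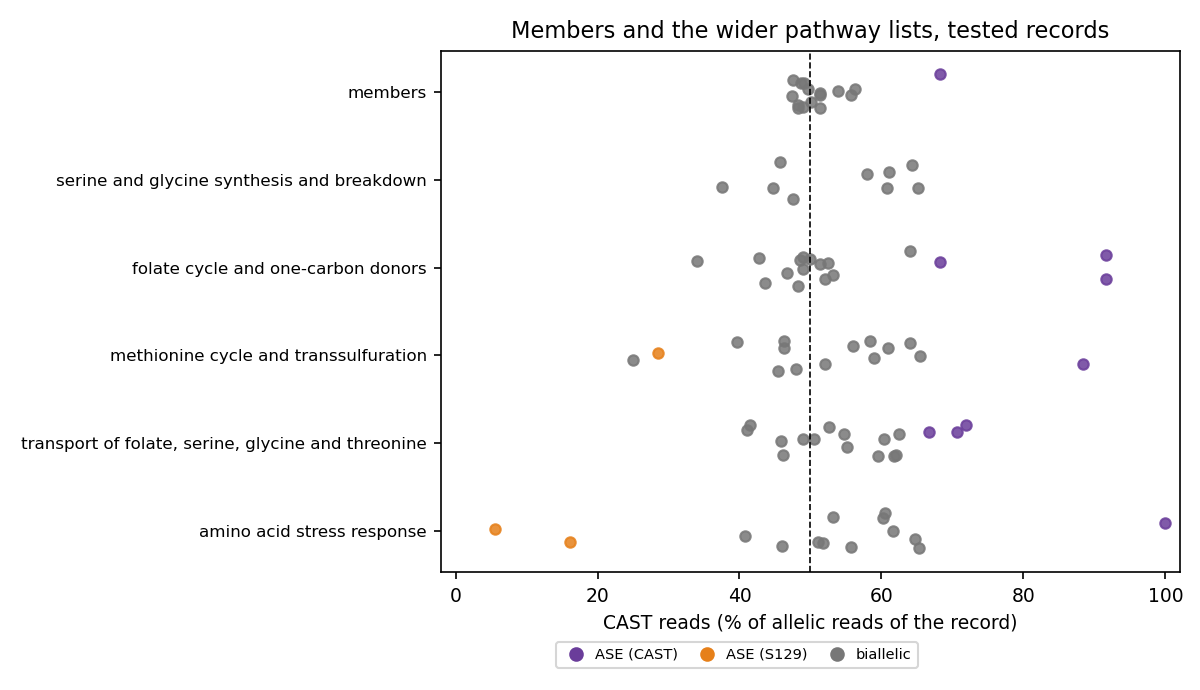
CAST share (x axis) of every tested record of the members and of the 5 wider lists, 1 point per record, with vertical scatter added for legibility. Purple points were called toward CAST and orange ones toward S129. Of the 16 member records 15 lie between 47.3 and 56.2%, while the stress list spans from 5.52% (Nupr1) to 100% (Chac1).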

How the data were processed

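Total RNA (1 µg) of 2 F123 mESC replicates was sequenced as paired 75-base reads from a stranded kit. The authors mapped reads to mm10 (GRCm38.p6) with STAR 2.7.2c and the F123 variants, removed duplicates with Picard and deposited 1 table over both replicates. The deposited count columns hold CAST and S129 reads from GATK, summed over the variants of a record, and the methods state a minimum of 20 reads per variant. The authors derived the deposited TPM columns from HTSeq reads over exons, or over exons and introns, with an alignment quality of at least 10. The deposited variant numbers of each record, with their exonic, intronic and non-reference classes, are other values of the authors. Columns of the authors' own comparison (fold change, p-value, class) were not used.

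Each record was tested with a two-sided exact binomial test against equal shares, with Benjamini-Hochberg adjustment over all records with allelic reads, using SciPy 1.17.1, pandas 2.3.3 and Python 3.11.15. ASE was called at 1 TPM or more where the adjusted p was at most 0.05 and the log2 ratio at least 1 in size, and other tested records were called biallelic. Fold changes are CAST over S129 without added reads. Shares have exact (Clopper-Pearson) and differences Newcombe 95% intervals. Inner records were subtracted from outer ones and compared with Fisher's exact test, a comparison added after the data were seen. Nested totals were compared with a tolerance of 1e-06. Alternatives changed depth, TPM and fold minimums, adjustment and the assumed correlation of reads.

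All 10 members and all their records are named. Of each wider list, up to 4 ASE records per allele and the record with the highest TPM are named, and of each member's surroundings the nearest tested record with at least 20 allelic reads on either side and overlapping genes. Exceptions are stated. The members and lists were chosen with earlier results of these data known.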

Additional observations from a re-analysis of the deposited data

How the results depend on the processing

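The ASE call of Shmt1 was kept in 13 of 14 planned settings and the other 15 member records were called in none of the settings that included them (lncRNA records drop out of the setting with protein-coding records only, and that of Psat1 out of the one with at least 3 variants), so the number of called member records was 1 throughout except at an intra-gene correlation of 0.05, where it was 0. Calls over all tested records came to 1444 with at least 100 allelic reads, 1117 at a TPM of at least 5, 1305 among protein-coding records only, 487 at a correlation of 0.05 and 4088 at a 1.5-fold minimum, beside 2249. Calls in the wider lists came to 6 with at least 100 reads, 6 at a TPM of at least 5, 4 at a correlation of 0.05, 28 at a 1.5-fold minimum, and 7 with Bonferroni adjustment, with protein-coding records only or with at least 3 variants, beside 11. With reads thinned for a correlation of 0.01, Shmt1 minus Shmt2 was 16.4 points (adjusted p = 0.0788), Mthfd1 minus Mthfd2 was -5.86 points (adjusted p = 0.705), the rest of Tdh minus Gm17232 was 8.04 points and the rest of Mthfd1 minus Gm34868 was -2.59 points (adjusted p = 1 for both, Fisher's exact test), and the cause of each loss is the smaller number of reads assumed. The median level of the members was 22.7 TPM with the highest record of each gene and 22.4 TPM over exons, beside 21.3 TPM. No paired analysis was possible because the deposited table pools both replicates, and for the same reason no replicate was left out. Depth limited Gcat and the lncRNA record of Shmt1 most.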
